A study of Mus musculus with 6 samples.

Results

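The genes described here carry new proteins into the endoplasmic reticulum (ER), fold them there and pack them for transport to the Golgi. Members were the rows of the deposited count table whose symbols belong to the Sec, Ssr, Spcs, Srp, Pdia and Tmed number series, or are Rpn1, Rpn2, Calr or Canx, with at least 50 UMIs (unique molecular identifiers, which mark each RNA molecule so that copies of it are not counted again) over all barcodes. Of 27998 genes in the table, 63 matched by name and 56 reached the minimum. Just inside it were Sec14l4 with 107 UMIs and Pdia5 with 130. The 7 outside it were Sec31b with 6 UMIs, Sec1 and Tmed6 with 3 each, Pdia2 with 2, and Srp54a, Sec14l5 and Tmed11 with 0.

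A protein bound for secretion is caught at the ribosome by the signal recognition particle (6 members, all named Srp) and handed to the Sec61 channel (4 members), beside which sit the TRAP complex (Ssr1 to Ssr4) and the helpers Sec62 and Sec63. The signal peptidase (Sec11a, Sec11c and Spcs1 to Spcs3) removes the leader peptide, the oligosaccharyltransferase with its ribophorins Rpn1 and Rpn2 adds sugar chains, and calreticulin (Calr), calnexin (Canx) and the protein disulfide isomerases (4 members, named Pdia) fold the product. Vesicles then bud under the COPII coat (10 members of the Sec13, Sec16, Sec23, Sec24 and Sec31 families) with p24 cargo receptors (9 Tmed members). Beside them are 4 partners, Sec23ip and the SNARE-like Sec22a, Sec22b and Sec22c. Antibody-secreting plasma cells and matrix-producing fibroblasts are textbook users of this route. The Sec14l genes (4 members) match by name only: they encode cytosolic lipid-binding proteins. Srp54b has near-identical copies, so its counts are uncertain, and Sec11a and Tmed7 overlap exons of Nmb and Ticam2 on the same strand.

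The cells came from lungs of SMA-GFP;Tbx4cre;RosaTdTomato mice, in which GFP reports smooth muscle actin (SMA) and Cre under Tbx4, a gene of the lung mesenchyme, marks a lineage with TdTomato (Tm). The labels name 6 samples, 3 from mice given bleomycin, a drug that scars the lung, at day 21, and 3 from normal mice at day 0; on each day 1 sample was SMA+Tm+, another SMA-Tm+ and the last SMA-Tm-. The labels state neither strain background, sex and age nor how many animals were pooled. The sort was for cells negative for Epcam, CD31 and CD45, and the study set out to divide the mesenchymal cells of normal and fibrotic lung into subtypes. Both deposited tables pool all cells, and no label ties the barcode suffixes 1 to 6 to a sample, so neither days nor gates were compared. The table was treated as 1 sample, no test was run between classes, and values within suffixes are given beside the pooled ones.

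Of 10410 barcodes, 9919 passed as cells, with a median of 2699 UMIs. The suffixes held 683 to 2990 cells each and their median UMIs per cell ran between 1783.5 and 3633.5. There were 55 barcode sequences that occurred in more than 1 suffix, covering 110 barcodes. Classes were built by clustering without the member genes. Fibroblasts were mesenchymal cells with 3 or more UMIs of Col1a2 plus Col3a1 (2482 cells), endothelial-like cells had 2 or more UMIs of Pecam1 plus Cdh5 (583), and macrophages (1506) and lymphocytes (3388) came from their clusters. Ptprc, which encodes CD45, read 7.15 CPM in fibroblasts, 482 CPM in macrophages and 523 CPM in lymphocytes (CPM is the UMI count of a gene per 1000000 UMIs of the class), so the table holds CD45-expressing cells although the sort was for CD45-negative ones.

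The Jchain-high cells were barcodes with 20 or more UMIs of Jchain, which encodes the joining chain of secreted antibodies. No barcode lay near that minimum: the highest below it had 5 Jchain UMIs and the lowest above it had 42. Of 26 such barcodes, 3 fell under the gene minimum and 2 were called doublets, which left 21 cells with 144728 UMIs. Of their UMIs 9.61% came from Jchain. Plasma cell genes were high in them. Tnfrsf17, which encodes the survival receptor BCMA, read 242 CPM in Jchain-high cells and 0.112 CPM in lymphocytes. Xbp1, a transcription factor of the unfolded protein response that plasma cells need, read 3054 CPM in Jchain-high cells and 41.9 CPM in lymphocytes. Ms4a1, which encodes the B cell antigen CD20, ran the other way with 41.5 CPM in Jchain-high cells and 566 CPM in lymphocytes. By cluster, 16 of the 21 cells lay in a cluster named for dividing cells, here the dividing cluster, and 5 elsewhere. Of those 5, 2 lay in a T cell cluster and 1 each in a Col14a1 fibroblast, a B cell and an alveolar macrophage cluster. The dividing cluster was mixed, with 12 markers of dividing cells and 5 of platelets or erythroid cells among its leading genes. Hba-a1, Hba-a2, Hbb-bs, Hbb-bt and Jchain stood ahead of Top2a. Whether the 16 cells were dividing was not tested.

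The members made up 1.76% of the UMIs of Jchain-high cells (exact 95% interval 1.69 to 1.83), the highest share of any class in the table. Only 3 rows of the table matched immunoglobulin chain names, so UMIs of other chains are not in that total. They made up 0.686% in fibroblasts (0.681 to 0.692), 0.641% in macrophages (0.635 to 0.647), 0.580% in endothelial-like cells (0.568 to 0.592) and 0.432% in lymphocytes (0.428 to 0.437). These intervals, like all that follow, are at 95% and cover counting error only, since the pooled table holds no replicates. Suffixes with at least 20 cells of a class showed how far the values moved within the table. Fibroblasts ran from 0.632% to 0.807% over 6 suffixes, macrophages from 0.619% to 0.670% over 5, endothelial-like cells from 0.518% to 0.647% over 6 and lymphocytes from 0.385% to 0.481% over 6. The lymphocyte range lay below the other 3, whereas the ranges of fibroblasts, macrophages and endothelial-like cells overlapped. Within the lymphocytes, T cell-like cells had 0.396%, B cell-like cells 0.427%, natural killer cell-like cells 0.526% and an unnamed lymphocyte cluster 0.553%. The natural killer cell-like and unnamed values lay within the endothelial-like range. Alveolar macrophage-like cells had 0.672% and interstitial macrophage-like cells 0.558%. No suffix held 20 Jchain-high cells.

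**Figure D1:**
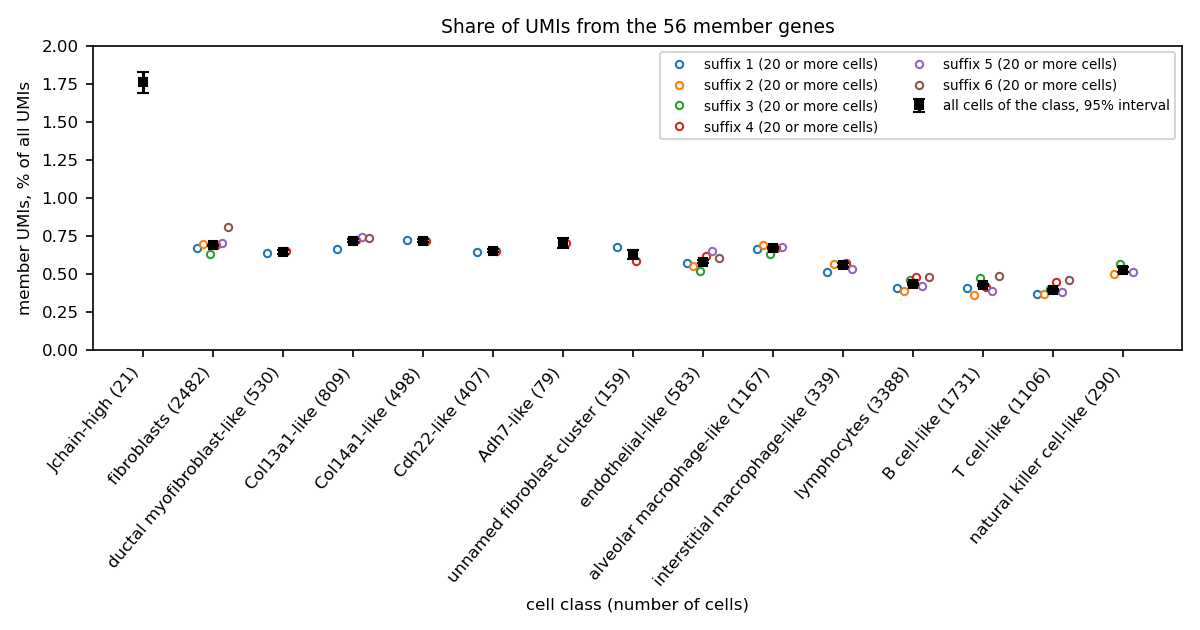
Share of all UMIs that came from the 56 members (y axis, percent) in each cell class (x axis, with its number of cells). Black squares are the class with its exact 95% interval and open circles are single suffixes with 20 or more cells; Jchain-high cells stand at 1.76%, and the other classes drawn lie between 0.396% in T cell-like cells and 0.718% in Col14a1-like cells.

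Cell by cell, the member share ran from 0.517% through a median of 1.53% to 3.09% in the 21 Jchain-high cells. The median lymphocyte had 0.413% and the 99th percentile of lymphocytes was 0.939%. All 21 Jchain-high cells lay above the lymphocyte median, 17 lay above the 99th percentile, and 0 of 3388 lymphocytes reached the Jchain-high median. The 16 cells in the dividing cluster had 1.40% to 3.09%, and the 5 cells found in other clusters had 0.517% to 1.42%. The other 110 cells of the dividing cluster, which was mixed, had a share of 0.558%. By suffix, 12 of the 21 cells carried suffix 5, with 0.517% to 3.09%, and 5 carried suffix 2, with 1.44% to 2.10%.

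**Figure D2:**
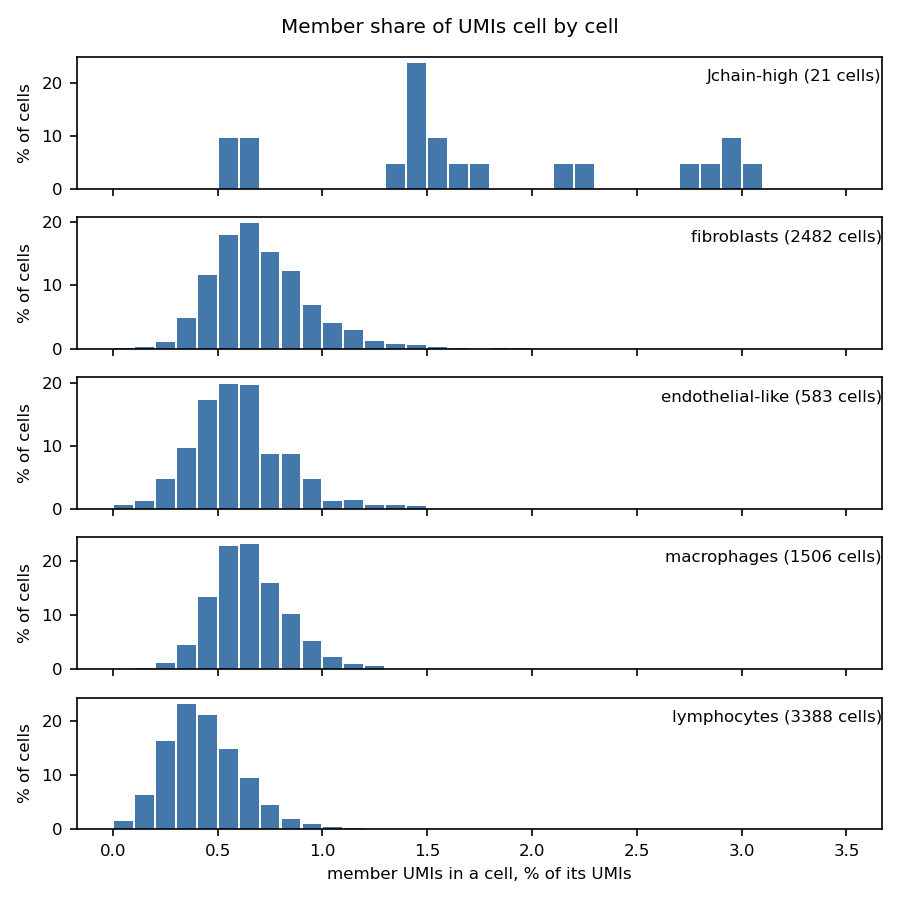
Histograms of the member share in single cells (x axis, percent of the cell's UMIs, in bins of 0.1) for 5 classes, with the percent of cells in each bin on the y axis. Most Jchain-high cells lie above 1.3%, to the right of nearly all cells of the other classes, and 4 of the 21 lie between 0.5% and 0.7%.

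Most measured members of the route were higher in Jchain-high cells than in lymphocytes. A gene counted as measured where the mean of both CPM levels gave 10 or more UMIs in the smaller class, and as called at 2-fold or more. Of 33 measured members, 26 were called higher and 0 lower, where 18.3% of the 1760 measured genes of the table were called higher and 14.2% lower. The median log2 ratio was 1.81 for the measured members and -0.04 for all measured genes. That rule takes in genes through their level in Jchain-high cells, such as Pdia4 and Sec24a, and leaves out Sec11a, which was lower there. Counted as measured by the lymphocyte level alone, 20 members remained, of which 13 were called higher and 1, Sec11a, lower, where 7.36% of 1725 genes were called higher and 23.9% lower. Their median log2 ratio was 1.43, against -0.38 for those 1725 genes. With no minimum, 44 of the 55 members with UMIs in either class had the higher CPM in Jchain-high cells and 11 had the lower. Of all 15826 genes with UMIs in either class, 5351 had the higher CPM there and 10475 the lower. Without suffix 5, which left 9 Jchain-high cells, 17 members were measured and 16 were called higher. With the 16 cells of the dividing cluster alone, 29 were measured and 24 were called higher. The share of all genes called is not given for these 2 settings. Jchain-high cells were also larger libraries, with a median of 6329 UMIs against 2182.5 in lymphocytes. Among cells with 2000 to 4000 UMIs only 3 Jchain-high cells remained and 1 member was measured. The part of library size in the difference was not tested further.

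At the channel, 3 of 3 measured Sec61 and 3 of 4 TRAP genes were called higher, with median log2 ratios of 2.37 and 2.10. At the signal peptidase beside it, 4 of 4 measured genes were called higher, with a median of 3.07. Sec61a1, Ssr2, Ssr3 and Spcs3 counted as measured only through their level in Jchain-high cells. By the lymphocyte level alone they drop out, and Sec11a is measured and called lower, at -2.14. Sec61a2, not measured, held 1 UMI in Jchain-high cells. Ssr4, the TRAP subunit with the most UMIs, read 2100 CPM in Jchain-high cells (304 UMIs) and 173 CPM in lymphocytes, a log2 ratio of 3.60 (3.42 to 3.78). All 21 Jchain-high cells held Ssr4 UMIs, with 235, 1478 and 5560 CPM as the lowest, median and highest cell. Sec11c, a catalytic subunit of the signal peptidase, read 2066 CPM in Jchain-high cells and 174 CPM in lymphocytes, a log2 ratio of 3.57 (3.39 to 3.75), and was present in 20 of the 21 cells. The accessory subunits were higher too: the log2 ratio was 3.16 for Spcs3 (2.75 to 3.55), 2.97 for Spcs1 (2.69 to 3.25) and 2.23 for Spcs2 (1.90 to 2.53). Sec11a, the other catalytic subunit, was not measured by the rule, with 3 UMIs or 20.7 CPM in Jchain-high cells and 91.1 CPM in lymphocytes. Sec61b, which encodes the beta subunit of the channel, read 1907 CPM in Jchain-high cells and 365 CPM in lymphocytes, a log2 ratio of 2.39 (2.20 to 2.56). Sec61g and Sec61a1, the gamma subunit and a pore subunit, had log2 ratios of 1.74 (1.53 to 1.94) and 2.37 (1.80 to 2.89).

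In the signal recognition particle, 4 of 5 measured members were called higher, with a median log2 ratio of 1.16. Srp9, which with Srp14 pauses translation, had the largest ratio, 1.59 (1.28 to 1.87), and Srp14 the smallest, 0.34 (-0.13 to 0.77), with 304 CPM in Jchain-high cells and 240 CPM in lymphocytes. Of the channel helpers, Sec63 was called higher at 1.09 (0.20 to 1.85). Sec62 read 235 CPM in Jchain-high cells and 137 CPM in lymphocytes, a log2 ratio of 0.78 (0.25 to 1.27). By the lymphocyte level alone, Srp54b of the particle and Sec63 did not count as measured.

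Among the folding genes, Pdia4, an isomerase with an extra active domain, led with 670 CPM in Jchain-high cells and 59.7 CPM in lymphocytes, a log2 ratio of 3.49 (3.16 to 3.80). Pdia6 followed at 2.49 (2.04 to 2.91), Rpn1 at 2.46 (1.82 to 3.04) and Rpn2 at 1.76 (1.19 to 2.29). Pdia6 was present in 13 of the 21 cells, and 1 cell held 15 of its 50 UMIs. Rpn1 was present in 11 cells and Rpn2 in 15. By the lymphocyte level alone, Pdia4, Pdia6, Rpn1 and Rpn2 did not count as measured. The lectin chaperones parted. Calr, soluble in the ER lumen, read 739 CPM in Jchain-high cells and 143 CPM in lymphocytes, a log2 ratio of 2.37 (2.07 to 2.65). Of the 107 Calr UMIs in Jchain-high cells, 31 lay in 1 cell. The membrane-bound relative of Calr is next. This gene, Canx, read 173 CPM in Jchain-high cells and 111 CPM in lymphocytes, a log2 ratio of 0.63 (-0.00 to 1.20), and was not called. Pdia3, the isomerase that works with both, had 1.27 (0.84 to 1.68).

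In the export machinery, only 2 COPII coat genes were measured, and both were called higher. Neither was measured by the lymphocyte level alone, so they passed the minimum only through a higher level in Jchain-high cells. The same holds for Tmed3 below. Their calls therefore say little about the coat as a group, and Sec24b, not measured, held 1 UMI in Jchain-high cells. Sec24a, 1 of the 4 cargo-binding Sec24 subunits, read 193 CPM in Jchain-high cells (28 UMIs) and 29.3 CPM in lymphocytes, a log2 ratio of 2.72 (2.10 to 3.29), and Sec13, a subunit of the outer cage, had 1.84 (1.04 to 2.54). Of 6 measured p24 receptors 3 were called higher, namely Tmed10 at 2.39 (2.03 to 2.73), Tmed2 at 1.81 (1.54 to 2.07) and Tmed3 at 1.72 (0.99 to 2.37). Tmed5 had the smallest ratio of all measured members, with 117 CPM in Jchain-high cells and 105 CPM in lymphocytes, a log2 ratio of 0.16 (-0.63 to 0.85). No UMI was seen in Jchain-high cells for 7 members (Sec16b, Sec22c, Tmed8, Pdia5, Sec14l2, Sec14l3 and Sec14l4), which allows up to 20.7 CPM at this depth.

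**Figure D3:**
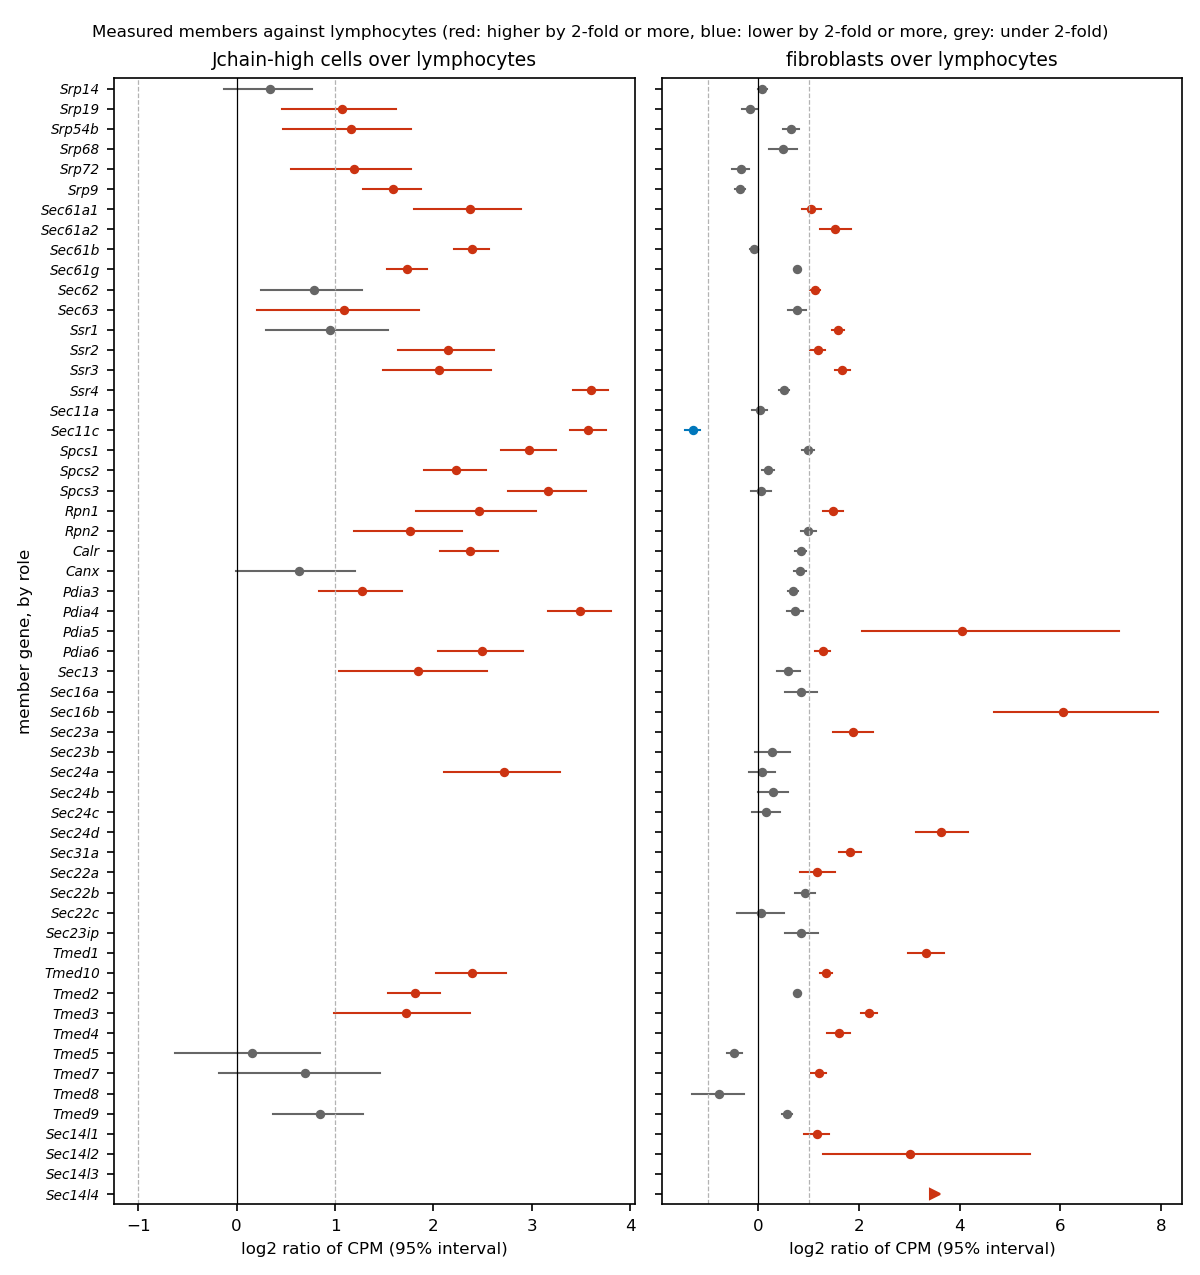
Log2 ratio of CPM (x axis) of each measured member (y axis, grouped by role from targeting at the top to name-only matches at the bottom), for Jchain-high cells over lymphocytes (left) and fibroblasts over lymphocytes (right). Bars are exact 95% counting intervals, dashed lines mark 2-fold, and the triangle for Sec14l4 is a lower bound because lymphocytes held no UMI; Sec11a is not drawn on the left because it was not measured there, and on the right Sec11c lies at -1.31.

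Most measured genes of the wider pathway were also higher in Jchain-high cells. Of 33 listed genes of the unfolded protein response, the program that enlarges the ER under load, 19 were measured and 17 were called higher and 0 lower, with a median log2 ratio of 3.12. Derl3, a subunit of the channel that removes misfolded proteins, read 442 CPM in Jchain-high cells and 2.91 CPM in lymphocytes, a log2 ratio of 7.25 (6.57 to 7.96). Xbp1 had 6.19, Edem1, a mannosidase-like protein of ER-associated degradation, 5.19, and Creld2, an ER stress gene, 5.13. Of 30 other ER folding and glycosylation genes, 18 were measured, 15 were called higher and 0 lower, with a median of 1.99; Txndc5, an isomerase of the Pdia kind, led with 2308 CPM in Jchain-high cells and 113 CPM in lymphocytes. Of 31 other export and retrieval genes, 15 were measured, 12 were called higher and 0 lower, with a median of 1.69. Lman1, the receptor that carries glycoproteins out of the ER, read 304 CPM in Jchain-high cells and 16.2 CPM in lymphocytes. Counted as measured by the lymphocyte level alone, 7 of 9 unfolded protein response genes, 6 of 9 other folding genes and 3 of 4 other export genes were called higher, and 0 of each lower. Of 15 fibrillar matrix genes only Dcn was measured, at 332 CPM in Jchain-high cells and 3.14 CPM in lymphocytes, where 1 Jchain-high cell lay in a fibroblast cluster.

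The promoters of Calr, Canx and Pdia6 are shown because each holds an exact match to the ER stress response element (ERSE, CCAATN9CCACG, with N9 for any 9 bases), which the factors ATF6 and XBP1 bind under ER load, and Hspa5, the gene of the main ER chaperone and no member, is shown for comparison. Sequences are RefSeq windows of GRCm38.p6, from 250 bases before to 50 after each start, read 5′ to 3′ on the strand of the gene, with the match in capitals; in Calr it lies on the opposite strand.
Hspa5, chr2:34772005-34772064, plus strand: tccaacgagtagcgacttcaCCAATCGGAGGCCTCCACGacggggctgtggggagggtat
Calr, chr8:84847054-84847113, minus strand: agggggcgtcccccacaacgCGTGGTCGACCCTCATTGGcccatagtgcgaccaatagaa
Canx, chr11:50325779-50325838, minus strand: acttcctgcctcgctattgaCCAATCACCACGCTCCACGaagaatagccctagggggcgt
Pdia6, chr12:17266471-17266530, plus strand: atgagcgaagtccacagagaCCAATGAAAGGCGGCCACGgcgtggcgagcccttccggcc

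The element, searched on both strands, was found in 37 of 27025 genes with a window (0.137%) and in 3 of the 47 members with one. It was also in 6 of the 73 genes of the other ER lists with a window, namely Creld2, Derl3, Dnajc3, Hsp90b1, Hspa5 and Syvn1. The 3 members with the element did not move alike in Jchain-high cells, where the log2 ratios given above were 2.37 for Calr, 2.49 for Pdia6 and 0.63 for Canx. A match describes these letters only.

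Members were on the whole higher in fibroblasts than in lymphocytes, and the share called higher, 40%, was near that of all genes. The share called lower, 1.82%, was below that of all genes. Of 55 measured members, 22 were called higher in fibroblasts and 1 lower, where 34.3% of all measured genes were called higher and 16.2% lower. The median log2 ratio of the members was 0.84, against 0.34 for all measured genes. With ratios divided by that common shift, 15 members were called higher and 2 lower, and without ribosomal, mitochondrial and immunoglobulin counts 14 were called higher and 2 lower. The count called higher is therefore not a result about the group, and single members follow.

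Sec16b, which with Sec16a organizes ER exit sites, had the largest log2 ratio of fibroblasts over lymphocytes among members with UMIs in both. It read 29.8 CPM in fibroblasts (242 UMIs), and 0.630 CPM in endothelial-like cells (1 UMI), 1.18 CPM in macrophages (9 UMIs) and 0.448 CPM in lymphocytes (4 UMIs). The log2 ratio was 6.06 over lymphocytes (4.68 to 7.95), 4.65 over macrophages (3.71 to 5.80) and 5.57 over endothelial-like cells (3.08 to 10.88). Suffix by suffix, Sec16b ran from 22.7 to 63.4 CPM in fibroblasts, from 0 to 2.79 in endothelial-like cells, from 0.582 to 2.89 in macrophages, and lay under 1 CPM in every lymphocyte suffix, so the fibroblast range did not overlap the others. In those same classes Col1a2, a collagen gene of fibroblasts, read 1758 CPM in fibroblasts, 25.2 in endothelial-like cells, 15.3 in macrophages and 2.02 in lymphocytes.

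Sec24d, a cargo-binding coat subunit that collagen export depends on in fish, read 49.6 CPM in fibroblasts, 7.55 CPM in endothelial-like cells, 16.3 CPM in macrophages and 4.03 CPM in lymphocytes. The suffix ranges of Sec24d were 28.1 to 77.9 CPM in fibroblasts, against 0 to 16.2 CPM in endothelial-like cells, 11.4 to 18.6 CPM in macrophages and 2.70 to 8.09 CPM in lymphocytes. Tmed1, a p24 receptor, read 83.1 CPM in fibroblasts, 17.6 CPM in endothelial-like cells, 7.11 CPM in macrophages and 8.29 CPM in lymphocytes. Here the lowest fibroblast suffix, 28.1 CPM, lay within the endothelial-like range of 5.89 to 29.0 CPM. Tmed3, a close relative, read 192 CPM in fibroblasts, 60.4 CPM in endothelial-like cells, 125 CPM in macrophages and 41.9 CPM in lymphocytes.

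The 22 members called higher in fibroblasts than in lymphocytes, the 4 above among them, included 3 of the 4 TRAP subunits, led by Ssr3 at a log2 ratio of 1.67 (1.52 to 1.83), 5 of the 9 p24 receptors and 4 of the 10 coat genes, among them Sec23a at 1.87 (1.49 to 2.27) and Sec31a, of the outer cage, at 1.81 (1.60 to 2.03). These role counts stand beside 34.3% of all measured genes called higher and are not a result about the roles. No member of the signal recognition particle was called, and their median was -0.05. Of all measured genes 50.5% were called in either direction. Pdia5, Sec14l2 and Sec14l4 rest on few counts. Pdia5 had 30 UMIs in fibroblasts and 2 in lymphocytes, a log2 ratio of 4.05 (2.07 to 7.16). Sec14l2 had 22 UMIs in fibroblasts and 3 in lymphocytes, a log2 ratio of 3.01 (1.28 to 5.40). Sec14l4 had 31 UMIs in fibroblasts and 0 in lymphocytes, at least 11.4-fold higher against a floor of 3 UMIs over the lymphocytes. Sec11c alone was called lower, with 70.2 CPM in fibroblasts and 174 CPM in lymphocytes, a log2 ratio of -1.31 (-1.45 to -1.17), and it lay lower in fibroblasts in all 6 suffixes, with log2 ratios of -1.75 to -0.86.

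The promoters of Sec16b, Sec24d and Sec23a are shown because these were the 3 members with an exact TGACGTGG, the core of the unfolded protein response element and also a variant of the cyclic AMP element, on either strand. The search was made with the values above known. The window of Sec23a lies just past its start and is given at 30 bases.
Sec16b, chr1:157506726-157506785, plus strand: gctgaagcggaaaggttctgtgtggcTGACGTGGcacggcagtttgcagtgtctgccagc
Sec24d, chr3:123267436-123267495, plus strand: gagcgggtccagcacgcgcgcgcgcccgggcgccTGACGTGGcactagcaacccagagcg
Sec23a, chr12:59011993-59012022, minus strand: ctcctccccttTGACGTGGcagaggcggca

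TGACGTGG was found in 193 of 27025 genes with a window (0.714%), in 3 of 47 members, and in 6 of 73 other listed genes, which were Copb1, Copb2, Kdelr3, Stx5a, Txndc11 and Txndc5. The full cyclic AMP element, TGACGTCA, was found in 549 genes (2.03%) and in 0 members. Of those 6 only Kdelr3, a receptor that returns ER proteins from the Golgi, was called in fibroblasts against lymphocytes, with 47.2 CPM in fibroblasts and 0.336 CPM in lymphocytes. The log2 ratios of the other 5 in that comparison were 0.42 for Copb1, 0.63 for Copb2, 0.58 for Stx5a, 0.53 for Txndc5 and -0.17 for Txndc11. Creb3l1, an ER-bound transcription factor of secretory cells, read 74.7 CPM in fibroblasts, 3.15 CPM in endothelial-like cells, 3.03 CPM in macrophages and 1.23 CPM in lymphocytes. Whether any factor binds these windows was not measured here.

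Against macrophages the fibroblasts had 10 members called higher and 3 lower of 55 measured, where 29.7% of all measured genes were called higher and 18.7% lower. In either direction 13 of 55 members were called, against 48.4% of all measured genes. The member median was 0.26 and that of all measured genes 0.22, and ratios divided by that shift gave 8 members higher and 4 lower. Sec61a2, the other gene for the pore subunit, read 38.4 CPM in fibroblasts and 9.48 CPM in macrophages, a log2 ratio of 2.02 (1.64 to 2.41). Ssr2, the TRAP beta subunit, read 138 CPM in fibroblasts and 39.0 CPM in macrophages, a log2 ratio of 1.82 (1.64 to 2.01). The 3 called lower follow. Tmed5 read 75.4 CPM in fibroblasts and 212 CPM in macrophages, a log2 ratio of -1.49 (-1.63 to -1.36), and Sec11c read 70.2 CPM in fibroblasts and 185 CPM in macrophages, a log2 ratio of -1.40 (-1.54 to -1.26). Both were lower in fibroblasts in 5 of 5 suffixes. Sec14l2 read 2.71 CPM in fibroblasts and 14.5 CPM in macrophages. The lectin chaperones were lower in fibroblasts but under 2-fold: Calr read 256 CPM in fibroblasts and 428 CPM in macrophages, and Canx 197 CPM in fibroblasts and 375 CPM in macrophages.

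Against endothelial-like cells only 4 members were called higher in fibroblasts and 2 lower of 53 measured, against 14.9% higher and 18.8% lower over all measured genes. Of all measured genes 33.7% were called in either direction. The member median was 0.21, and that of all measured genes was -0.21. The 4 were Sec16b, Sec24d, Tmed1 and Tmed3, whose levels are given above, with log2 ratios of 2.71 (1.89 to 3.68) for Sec24d, 2.24 (1.69 to 2.84) for Tmed1 and 1.67 (1.37 to 1.98) for Tmed3. Pdia5, an isomerase, read 3.70 CPM in fibroblasts (30 UMIs) and 23.9 CPM in endothelial-like cells (38 UMIs), a log2 ratio of -2.69 (-3.43 to -1.96). Over suffixes Pdia5 ran from 0 to 17.3 CPM in fibroblasts and from 16.7 to 29.2 CPM in endothelial-like cells. Sec14l1, a name-only match, read 50.9 CPM in fibroblasts and 172 CPM in endothelial-like cells, a log2 ratio of -1.75 (-1.98 to -1.53), and was lower in fibroblasts in all 6 suffixes.

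For the wider pathway the share of genes called higher in fibroblasts lay near or below that of all measured genes, except against lymphocytes. Against lymphocytes, 46.9% of 32 measured genes of the unfolded protein response, 30% of 30 other folding genes and 50% of 30 other export and retrieval genes were called higher, beside the 34.3% of all genes. Against macrophages the same lists gave 12.9% of 31, 13.3% of 30 and 26.7% of 30, beside 29.7%. Against endothelial-like cells they gave 13.3% of 30, 13.8% of 29 and 13.3% of 30, beside 14.9%. Of the 15 fibrillar matrix genes, the cargo of fibroblasts, all were called higher against lymphocytes, with a median log2 ratio of 9.25, and against endothelial-like cells, with 5.30. Against macrophages 14 were called higher and 1 lay below 0, with a median of 6.56. Col1a2 and Col3a1, which are among them, were used to gate the fibroblasts. Other matrix genes, Dcn among them, were on the marker list used to name mesenchymal clusters. These calls therefore follow in part from how the class was made. Matrix genes took 1.43% of the UMIs of fibroblasts, against 0.0922% in endothelial-like cells, 0.0732% in macrophages and 0.00290% in lymphocytes. Serpinh1, the collagen chaperone HSP47, which was also on that marker list, read 652 CPM in fibroblasts, 200 CPM in endothelial-like cells and 0.896 CPM in lymphocytes.

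**Figure D4:**
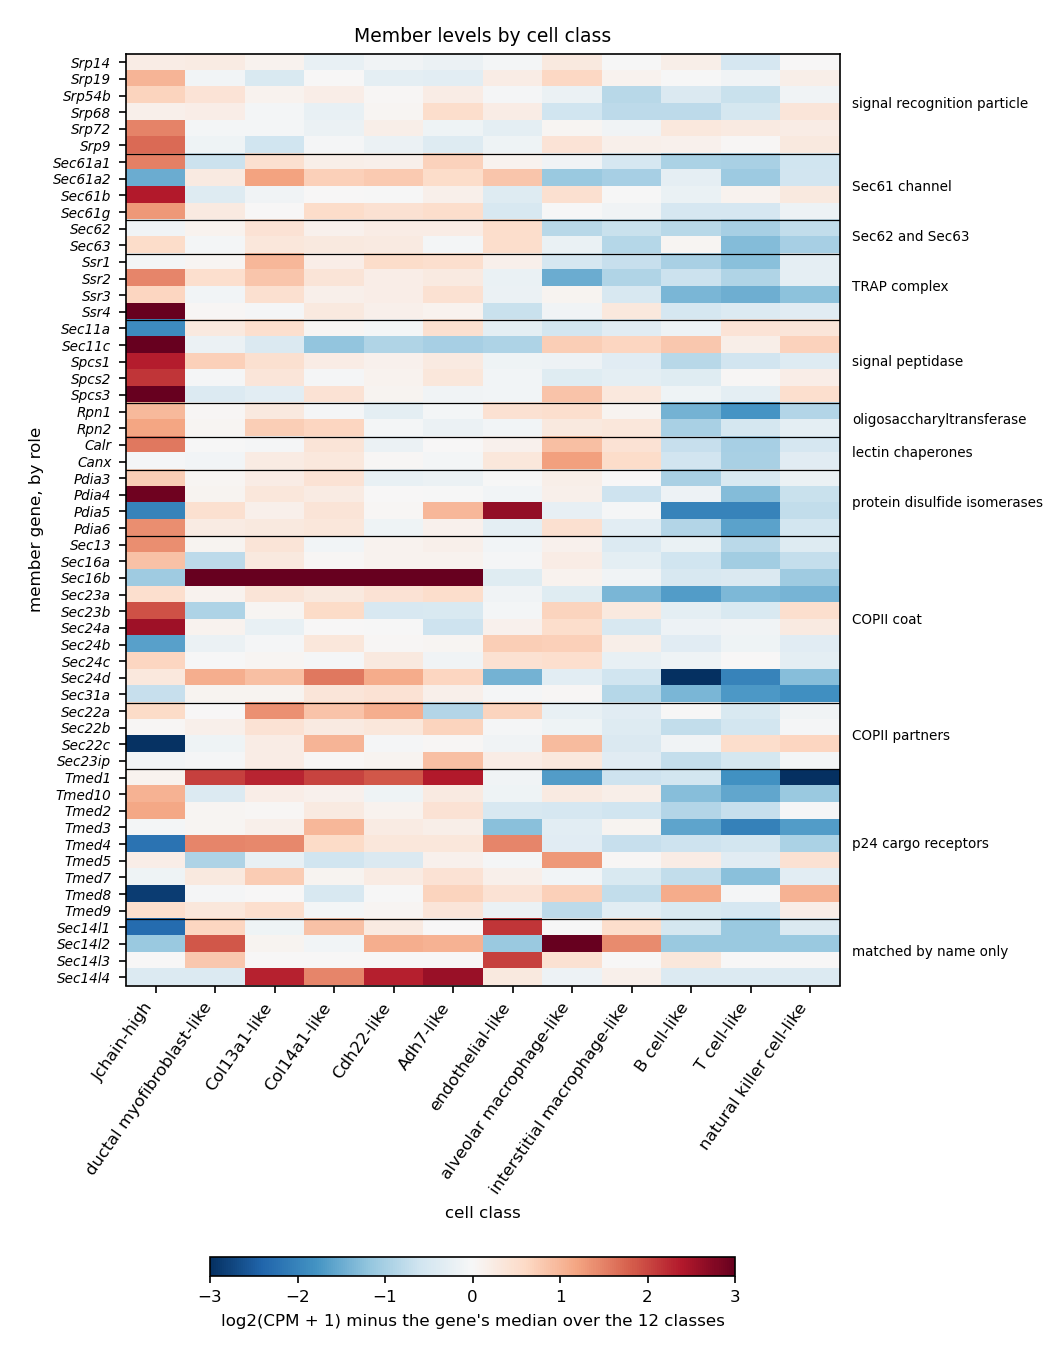
Level of each member (rows, by role) in 12 cell classes (columns) as log2(CPM + 1) minus the median of that gene over the 12 classes, with colours ending at -3 and 3. Jchain-high cells are deep red for Ssr4, Sec11c, Pdia4 and Spcs3, the 5 named fibroblast subtypes are red for Sec16b and Tmed1, and blue cells in the Jchain-high column can be genes with 0 UMIs among only 144728.

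Over the 4 large classes (fibroblasts, endothelial-like cells, macrophages and lymphocytes) the members divided about evenly at 2-fold. The highest class had under 2-fold the CPM of the lowest for 27 members, 2-fold to under 4-fold for 18, and 4-fold or more, or a level of 0, for 11. The highest level was in fibroblasts for 26 members, in macrophages for 16, in endothelial-like cells for 12 and in lymphocytes for 2. The lowest was in lymphocytes for 36. These counts were not made over all genes, so they are not a result about the members as a group. In fibroblasts against lymphocytes, 7892 of all 12956 measured genes had a log2 ratio above 0 and 5064 below. Srp14 was the flattest member, with 1.24-fold between 299 CPM in macrophages and 240 CPM in lymphocytes.

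Families with more than 1 gene for a part of the route split their UMIs differently by class. These are shares of 3′ UMIs within a family, compared between classes only. Of Sec16 UMIs, Sec16b took 52.7% in fibroblasts (48.0 to 57.4), 2.44% in endothelial-like cells, 4.13% in macrophages and 2.92% in lymphocytes. Of Sec24 UMIs, Sec24d took 37.5% in fibroblasts (34.6 to 40.5), 6.32% in endothelial-like cells, 124 of 955 UMIs in macrophages and 5.17% in lymphocytes, while Sec24a took 71.8% in Jchain-high cells (55.1 to 85.0, 28 of 39 UMIs) and 37.6% in lymphocytes. Sec23a, a GTPase-activating coat subunit, took 61.7% of Sec23 UMIs in fibroblasts (56.7 to 66.4) and 34.7% in macrophages and in lymphocytes. Of the signal peptidase pair, Sec11c took 299 of 302 UMIs in Jchain-high cells (95% interval 97.1% to 99.8%), 43.1% in fibroblasts, 48.0% in endothelial-like cells, 76.8% in macrophages and 65.6% in lymphocytes. Sec61a1 took 97.0% of pore subunit UMIs in Jchain-high cells (32 of 33), 69.8% in fibroblasts, 68.6% in endothelial-like cells, 87.5% in macrophages and 76.2% in lymphocytes.

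**Figure D5:**
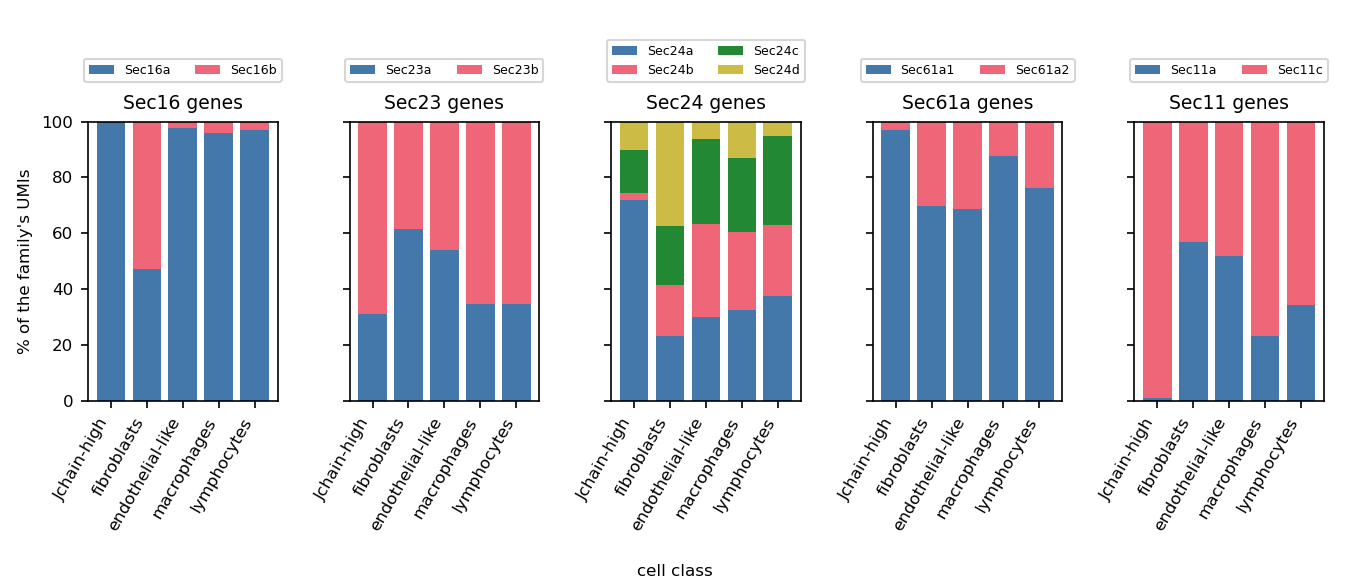
Stacked bars of the share of a family's UMIs (y axis, percent) taken by each of its genes in 5 classes (x axis), for the Sec16, Sec23, Sec24, Sec61a and Sec11 families. Among these 5 classes Sec16b and Sec24d take their largest parts in the fibroblast bars, 52.7% and 37.5%, and Sec11c fills nearly the whole Jchain-high bar.

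Among the fibroblasts the members varied little. Their share of UMIs was 0.718% in Col14a1-like cells (0.706 to 0.731), 0.717% in Col13a1-like cells (0.706 to 0.728), 0.701% in Adh7-like cells (0.671 to 0.732), 0.653% in Cdh22-like cells (0.642 to 0.664) and 0.646% in ductal myofibroblast-like cells (0.632 to 0.660). A cluster led by the cardiac muscle genes Myl4 and Myl7 was left unnamed and had 0.627%. The intervals of the first 3 overlap, as do those of Cdh22-like, ductal myofibroblast-like and unnamed cells. Over suffixes with enough cells, Col13a1-like cells ran from 0.664% to 0.744% and unnamed cells from 0.586% to 0.676%, so these ranges overlap. Those of Col14a1-like cells, 0.717% to 0.721%, and ductal myofibroblast-like cells, 0.634% to 0.651%, do not. The matrix cargo of the fibroblast subtypes ran from 0.990% in the ductal group to 2.12% in the Col14a1-like group.

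Ductal myofibroblast-like cells had 0 members called higher and 3 lower than other fibroblasts, of 51 measured, where 6.49% of all measured genes were called higher and 9.41% lower. Sec22a, a SNARE-like protein, read 13.7 CPM in ductal myofibroblast-like cells (18 UMIs) and 29.9 CPM in other fibroblasts, a log2 ratio of -1.12 (-1.91 to -0.43). Sec23b, the second Sec23 gene, read 9.91 CPM in ductal myofibroblast-like cells (13 UMIs) and 20.6 CPM in other fibroblasts, a log2 ratio of -1.06 with an upper bound of -0.23. Sec16a read 14.5 CPM in ductal myofibroblast-like cells (19 UMIs) and 29.1 CPM in other fibroblasts, a log2 ratio of -1.01 (-1.77 to -0.33). All 3 rest on under 20 UMIs. They lay lower in suffixes 1 and 4, the 2 with enough cells. The rule for naming members asked for that direction in both, so it is no separate support, and all 3 called members met it. Without suffix 4 only 1 member was called. The 4 Sec61 channel genes all lay below 0 and none was called; Sec61a1, a pore subunit, came nearest with 48.8 CPM in ductal myofibroblast-like cells and 96.5 CPM in other fibroblasts, a log2 ratio of -0.98 (-1.38 to -0.61).

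In Col13a1-like cells 0 of 53 measured members were called against other fibroblasts, where 7.19% of all measured genes were called higher and 7.2% lower. The largest measured ratio was that of Sec14l4, 0.82 (-0.33 to 1.93), then Tmed4, a p24 receptor, 0.68 (0.44 to 0.93), and Ssr1, the TRAP alpha subunit, with 347 CPM in Col13a1-like cells and 217 CPM in other fibroblasts, 0.67 (0.55 to 0.80). In Col14a1-like cells 0 of 52 measured members were called, where 4.31% of all measured genes were called higher and 7.35% lower. Sec22c came nearest, with 14.8 CPM in Col14a1-like cells and 7.56 CPM in other fibroblasts, 0.97 (0.24 to 1.68), and Sec23b had 0.93 (0.43 to 1.42). Tmed3 read 290 CPM in Col14a1-like cells and 162 CPM in other fibroblasts, 0.84 (0.68 to 0.99). These members were picked after their values were seen. With either other scaling of the counts the Col14a1-like cells had 2 members called higher in place of 0, and the Col13a1-like cells still had 0.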

How the data were processed

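Single-cell 3′ RNA libraries (10x Genomics) were read from the 2 tables the authors deposited, both pooling the 6 samples. The deposited counts are whole UMI counts of 27998 genes in 10410 barcodes. The authors' normalized table holds a signal for 19562 genes that sums to 2631.5, the median UMI count, in every barcode, and was used only for an alternative. STAR 2.5.1, Cell Ranger 1.3.0 and mm10 are named per the submitters' processing notes, with no role given. No column maps suffixes to samples, so all cells count as 1 sample and no p-value was computed.

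Barcodes with under 500 genes (318) or over 10% mitochondrial UMIs (105) were left out, and 75 called doublets (0.750% of 9994) were removed, which left 9919 cells and 34177581 UMIs. Cells were clustered in scanpy 1.11.5 (2000 variable genes, 30 components, 15 neighbours, Leiden resolution 0.8) without member and listed genes. The rule that names clusters by lineage was written after preliminary clusters were seen. UMIs were summed per class and given as CPM, with exact Poisson, Clopper-Pearson or conditional binomial intervals (95%, counting error only). Where 1 class held no UMI, a floor of 3 UMIs over the class was used. Simulated counts with known folds were used to test the ratios. Members and lists were chosen with earlier results of these data known. Members named are, by rule, the 6 with the largest ratio in each direction past 2-fold in each comparison, the one with the most UMIs in each role, and those highest by 2-fold in 1 class, and others were added to describe each role after their values were seen. In the subtype comparisons the rule also asked for the same direction in suffixes 1 and 4. Listed genes are the 4 with the largest ratio, with others added likewise. Promoter windows are from RefSeq (GRCm38.p6): 47 of 56 members had one. Only 3 rows of the count table matched immunoglobulin chain names, and they were not analysed here. UMIs of other chains are not in the totals behind the shares and CPM, and the effect was not tested.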

Additional observations from a re-analysis of the deposited data

How the results depend on the processing

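Under the settings that change a ratio, the 31 named member ratios were recomputed 524 times and kept their direction each time. These ratios were named for being the largest past 2-fold, and most settings reuse the same cells. A kept direction is therefore no independent support for them. Counts of members past 2-fold moved as follows. Against lymphocytes the Jchain-high count of 26 was 13 with a measured minimum of 30 UMIs, 16 without suffix 5, 14 with genes measured by the lymphocyte level alone and 1 in cells with 2000 to 4000 UMIs. With a fold of 1.5, the fibroblast counts of 23, 13 and 6 were 38 against lymphocytes, 25 against macrophages and 11 against endothelial-like cells, and the last was 3 in cells with 2000 to 4000 UMIs. The ductal myofibroblast-like count of 3 was 0 with a minimum of 30 UMIs, 8 with a fold of 1.5, 1 without suffix 4 and 5 in cells with 2000 to 4000 UMIs. The Col13a1-like count of 0 was 7 with a fold of 1.5, 2 with suffixes weighted equally, and 1 with the mean over cells, doublets kept, resolution 1.5, a minimum of 3 UMIs or without suffix 4. The Col14a1-like count of 0 was 8 with a fold of 1.5, 2 under either other scaling, and 1 with the stricter cell filter, doublets kept, resolution 1.5, a minimum of 3 UMIs, without suffix 1, 3, 4 or 5, in cells with 2000 to 4000 UMIs, or without the unnamed cluster.

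The member share moved beyond its interval to 1.86% in Jchain-high cells with doublets kept. It was 0.699% in fibroblasts, 0.602% in endothelial-like cells and 0.652% in macrophages as a mean over cells, and 0.675% in fibroblasts and 0.451% in lymphocytes under the stricter filter. The cause of these moves was not tested, except that a lower fold or minimum admits more genes by construction. The UMI range, the lymphocyte minimum, the single Jchain-high cluster and the set without the unnamed cluster were chosen after seeing the data. No suffix held 20 Jchain-high cells, so equal weighting of suffixes gave no value there. No paired test was run, because the pooled table was treated as 1 sample and the results come from no test. Ratios within suffixes are given for some members only. Depth limits Jchain-high cells most, where 33 of 56 members were measured.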

Other observations

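A cluster of 24 cells, here called the Foxj1 cluster, had the member Sec14l3 as its leading gene and also held Foxj1, the transcription factor of motile cilia, among its leading genes. It had a member share of 0.811% (0.769 to 0.854), and 0.582% without the 4 genes matched by name only. Among those 4, Sec14l3, a lipid-binding protein, read 2014 CPM in the Foxj1 cluster and 82.3 CPM in epithelial-like cells, the next class, a 24.5-fold difference. Neutrophil-like cells had the lowest share of any class, 0.334% (0.308 to 0.363) over 67 cells. Mesothelial-like cells lay between 0.679% and 0.721% (95% interval) over 112 cells and pericyte-like cells stood at 0.624% (0.579 to 0.673) over 61.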
